A study of Mus musculus with 6 samples.

Results

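Meis1, Meis2, Pbx2, Pbx3, Hoxb2, Hoxb3, Hoxb4 and Hoxb7 encode homeodomain transcription factors, and 4 of these 8 genes, Meis1, Pbx2, Pbx3 and Hoxb4, had a row among the 10995 rows of the deposited count table. The genes were selected on results of the same knockout against wild type contrast, so their differences are a description and support nothing further. Meis2, Hoxb2, Hoxb3 and Hoxb7 were not analysed here. The samples were tumor cells from the mammary glands of MMTV-PyVT mice, whose mouse mammary tumor virus promoter drives the polyoma middle T oncogene in mammary epithelium. They were compared between Nr4a1 knockout (Nr4a1-/-, KO) mice and age-matched wild type (WT) mice, with 3 libraries per genotype. Both genotypes were on the FVB/NJ strain and carried the PyVT transgene, so no group was free of the oncogene. Whether libraries of a genotype came from separate animals is not in the labels, so every test reflects the spread among these 6 libraries, and that spread may be technical.

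Hox proteins give cells positional identity along the body axis, and they bind DNA selectively when paired with cofactors of the TALE class, whose homeodomain carries an extended loop. Pbx proteins are the cofactors that contact the Hox protein directly, and Meis proteins bind Pbx, hold it in the nucleus and join many of the same complexes. Meis1 is known as a partner of Hox proteins in leukemia, Hoxb4 for expanding blood stem cells, and several Hox genes take part in mammary gland development.

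Total counts per library ranged from 19569173 to 24188875. On the first principal component, which carried 60.1% of the variance of log2 CPM (CPM, the counts scaled to a common library size), WT replicate 1 stood apart at 51.3, against -28.8 to 2.22 in the other 5 libraries. Nr4a1 itself had 612, 847 and 746 counts in KO libraries, against 711, 406 and 358 in WT libraries, and so was not lower with the KO label. The counts cover the whole gene, and what was deleted from it is not given here. Every direction below therefore refers to the libraries labelled KO and WT. In edgeR's quasi-likelihood test with Benjamini-Hochberg adjustment, 0 of 10995 genes (0%) passed an adjusted p of 0.05, 866 had an unadjusted p below that value, and the smallest adjusted p was 0.273. DESeq2 called 103 genes, 64 of them higher in KO (0.582% of all genes), and limma-voom called 0.

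Meis1 and Hoxb4 were the members with large differences, and the upstream DNA of both is shown because they moved in the same direction. Each line gives the 250 bases before the RefSeq start of the gene on its own strand, 5′ to 3′ (GRCm38.p6), with every CG dinucleotide in capitals.
Meis1: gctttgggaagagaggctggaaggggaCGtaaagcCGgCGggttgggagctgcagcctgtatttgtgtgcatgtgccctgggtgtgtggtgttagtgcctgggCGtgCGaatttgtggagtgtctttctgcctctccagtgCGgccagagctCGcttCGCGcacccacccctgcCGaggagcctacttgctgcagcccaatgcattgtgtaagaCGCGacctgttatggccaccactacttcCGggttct
Hoxb4: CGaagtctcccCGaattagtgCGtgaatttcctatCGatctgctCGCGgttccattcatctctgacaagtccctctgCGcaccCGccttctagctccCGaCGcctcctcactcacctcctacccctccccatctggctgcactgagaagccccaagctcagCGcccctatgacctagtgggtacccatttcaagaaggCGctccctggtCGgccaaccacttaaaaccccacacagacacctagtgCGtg
The Meis1 stretch lies at chr11:19018970-19019219 on the minus strand and holds 13 CG dinucleotides at 59.6% G or C. The Hoxb4 stretch lies at chr11:96318017-96318266 on the plus strand and holds 14 at 58% G or C. Over all 32851 RefSeq windows the median was 6 CG dinucleotides (quartiles 2 and 16) and 52.4% G or C. Both stretches lay above these medians, and their CG counts lay below the upper quartile. The upstream stretch of Pbx2 was denser, with 27 CG dinucleotides and 77.6% G or C.

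Each window of 250 bases before and 50 after the start was searched on both strands for the letters of 3 binding sites. These were AAAGGTCA, the monomer site of the NR4A receptors, TGACAG, the core bound by Meis proteins, and TGATNNAT, the core bound by Pbx-Hox pairs. The NR4A letters occurred in 1.51% of all windows, the Meis core in 19.2% and the Pbx-Hox core in 8.85%. The windows of Meis1, Hoxb4 and Pbx2 held none of them. That says only that these letters are not in these windows.

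Meis1, the TALE partner of Hox proteins, was higher in every KO library than in any WT library. Meis1 (ENSMUSG00000020160.18, GRCm38 chromosome 11, 18879817 to 19018985, minus strand) had 453, 311 and 217 counts in KO libraries, against 46, 99 and 81 counts in WT libraries. Scaled, these were 18.6, 13.0 and 11.0 CPM in KO, against 2.23, 4.54 and 3.81 CPM in WT. KO replicate 1 was the highest library and WT replicate 1 the lowest, and the lowest KO value was 2.41 times the highest WT value. The means were 14.2 ± 3.95 CPM in KO and 3.53 ± 1.18 CPM in WT (SD, n = 3 each). The log2 fold change was 2.01 (SE 0.33), the 12th highest of all genes. It did not pass edgeR's test (adjusted p = 0.528), while DESeq2 gave the same value with an adjusted p of 2.26e-05. Part of this gene's exons, 1029 bases, also belongs to the gene model Gm37818 on the same strand and 896 bases to the antisense model Gm16140. Neither model had a row, and no source used here gives the strand rule of the counting, so reads of the 3 cannot be told apart in those stretches.

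Hoxb4, a gene of the HoxB cluster, showed the same separation at a higher level. Hoxb4 (ENSMUSG00000038692.8, chromosome 11, 96318267 to 96321638, plus strand) had 515, 814 and 555 counts in KO libraries, against 91, 230 and 141 counts in WT libraries. Scaled, these were 21.1, 34.1 and 28.0 CPM in KO, against 4.41, 10.5 and 6.64 CPM in WT. The genotypes did not overlap, and KO replicate 2 and WT replicate 2 were the highest library of their genotypes. The means were 27.8 ± 6.49 CPM in KO and 7.20 ± 3.11 CPM in WT (SD, n = 3 each). The log2 fold change was 1.95 (SE 0.35), the 15th highest of all genes, with an adjusted p of 0.574 in edgeR and 7.79e-05 in DESeq2.

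The Pbx members, the direct cofactors of Hox proteins, did not separate the genotypes. Pbx2 (ENSMUSG00000034673.14, chromosome 17, 34591266 to 34597400, plus strand) had 1276, 1248 and 1120 counts in KO libraries, against 1077, 1230 and 1167 counts in WT libraries. Its mean was 53.7 ± 2.40 CPM in KO and 54.5 ± 2.14 CPM in WT (SD, n = 3 each), and the groups overlapped. This was a log2 fold change of -0.021 (SE 0.070, edgeR adjusted p = 0.916), with a 95% interval of -0.19 to 0.15. Pbx2 had the narrowest spread of the 4 members, with a highest library 1.08 times the lowest within either genotype. It shares 227 exon bases with its neighbor Gpsm3, which had a log2 fold change of -0.15 (SE 0.11) and overlapping groups. Pbx3 (ENSMUSG00000038718.15, chromosome 2, 34171457 to 34373142, minus strand) had 205, 204 and 139 counts in KO libraries, against 183, 167 and 125 counts in WT libraries. Its groups overlapped too, at 7.99 ± 0.852 CPM in KO and 7.47 ± 1.50 CPM in WT (SD, n = 3 each). This gave a log2 fold change of 0.099 (SE 0.20, edgeR adjusted p = 0.851), and its wider 95% interval ran from -0.38 to 0.58.

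**Figure D1:**
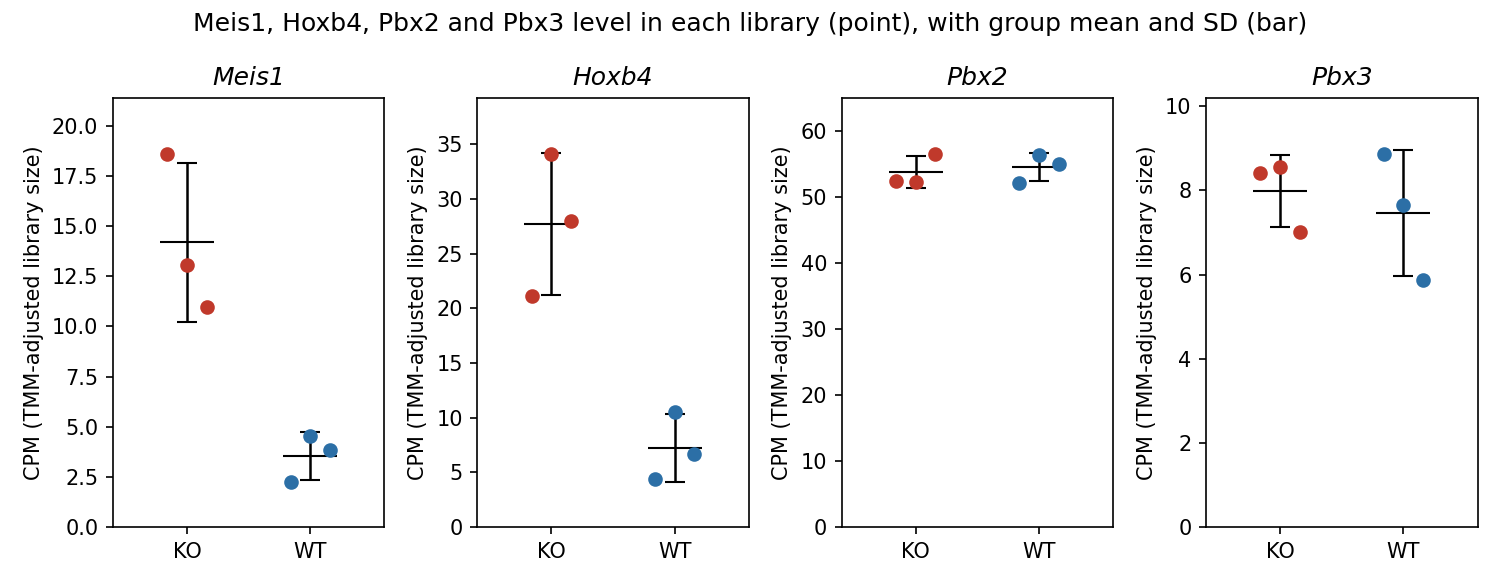
Level of Meis1, Hoxb4, Pbx2 and Pbx3 in CPM (y axis, from 0, a scale per gene) in KO (red) and WT (blue) libraries, with 1 point per library and bars for the mean and SD of 3 libraries. KO libraries lay above all WT libraries for Meis1 (11.0 to 18.6 against 2.23 to 4.54 CPM) and Hoxb4 (21.1 to 34.1 against 4.41 to 10.5 CPM), whereas the groups overlapped for Pbx2 and Pbx3.

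Of the 4 listed members, 0 passed edgeR's threshold, at a background of 0% of all genes, and 2 were called higher in KO by DESeq2, at a background of 0.582%. All 3 KO libraries lay above all 3 WT libraries for 2 of the 4, against 8.39% of all genes, and the groups failed to overlap in either direction for 17.4% of all genes. The median log2 fold change was 1.02 over the 4 members and -0.0024 over all genes. Nothing is read from these shares, because the same contrast chose the members. Table entry also bears on them. The lowest peak count of any row was 133, and the highest WT count of Meis1 was 99, so Meis1 reached that level through its KO libraries.

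DESeq2 was also run with each library left out in turn, an alternative chosen after seeing the data. Meis1 kept an adjusted p between 6.4e-06 and 0.00364 and a log2 fold change of 1.76 to 2.23. Hoxb4 kept an adjusted p between 1.12e-09 and 0.0182 and a log2 fold change of 1.69 to 2.33. Both were called in all 6 runs, in which 36 to 418 of all genes were called in either direction. Since the members were chosen on this contrast, these calls are a description. Without WT replicate 1, the library that stood apart, edgeR's log2 fold change was 1.77 for Meis1 and 1.69 for Hoxb4.

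On a per-length scale, as CPM per kilobase of the union of annotated exons, Pbx2 was the highest member with 14.8 ± 0.661 in KO and 15.0 ± 0.588 in WT (SD, n = 3 each). Hoxb4 followed with 10.8 ± 2.53 in KO and 2.81 ± 1.21 in WT. In KO the Pbx2 and Hoxb4 ranges did not overlap, since the highest Hoxb4 library had 13.3 and the lowest Pbx2 library 14.4 CPM per kilobase. Meis1 had 1.35 ± 0.375 in KO and 0.335 ± 0.112 in WT. Pbx3 had 1.31 ± 0.139 in KO and 1.22 ± 0.246 in WT. The per-kilobase levels of Meis1 and Pbx3 therefore did not differ beyond their spread in KO, while in WT Pbx3 lay above Meis1 and the 2 ranges did not overlap. Per kilobase of the longest transcript, the KO means were 2.80 CPM for Pbx3 and 1.88 CPM for Meis1, and the KO ranges overlapped, since the lowest Pbx3 library had 2.454 and the highest Meis1 library 2.463.

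The groups overlapped for every other TALE gene examined, and overlap was the common case, since the groups were apart for 17.4% of all genes. Of 14 on a list of other TALE genes, 8 had a row, 3 with a log2 fold change above 0 and 5 below. Their median was -0.11, beside -0.0024 over all genes, of which 49.4% lay above 0. None passed edgeR's test (0 of 8) or was called by DESeq2. An unadjusted p under 0.05 was found for 1 of the 8, beside 866 of all 10995 genes. Meis3, the closest listed relative of Meis1, had 246, 266 and 228 counts in KO libraries, against 92, 302 and 216 counts in WT libraries. WT replicate 1 was low and the other WT libraries were at the KO level, giving a log2 fold change of 0.20 (SE 0.39, 95% interval -0.76 to 1.16). Pknox1, another partner of Pbx proteins, had -0.049 (SE 0.097), and Tgif1, a TALE repressor, had -0.17 (SE 0.094).

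The Iroquois genes of the TALE class, which encode developmental transcription factors, had log2 fold changes between -0.51 and 0.016. Irx1 averaged 226 ± 57.9 CPM in KO and 321 ± 46.3 CPM in WT (SD, n = 3 each), with a log2 fold change of -0.51 (SE 0.20, edgeR adjusted p = 0.574). KO replicate 3 reached 292 CPM, above the lowest WT library at 281 CPM, so the groups overlapped. Irx2 had a log2 fold change of -0.38 (SE 0.18), Irx3 of -0.23 (SE 0.10) and Irx5 of 0.016 (SE 0.11). The tendon regulator Mkx had 0.087 (SE 0.26).

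The 2 other Hox genes with a row, of 35 on the list, also had means above WT but overlapping groups. Hoxc6 had 169, 324 and 136 counts in KO libraries, against 65, 150 and 94 counts in WT libraries. It had a log2 fold change of 0.92 (SE 0.40, edgeR adjusted p = 0.574, 95% interval -0.067 to 1.91), on means of 9.13 ± 3.86 CPM in KO and 4.82 ± 1.90 CPM in WT (SD, n = 3 each). Hoxb9, which lies in the same HoxB cluster as Hoxb4, had 142, 340 and 92 counts in KO libraries, against 46, 146 and 112 counts in WT libraries. The highest library of both genes in each genotype was replicate 2, as for Hoxb4. The log2 fold change of Hoxb9 was 0.80 (SE 0.57, edgeR adjusted p = 0.609, 95% interval -0.60 to 2.21), with KO replicate 3 below WT replicates 2 and 3. Without KO replicate 2, the log2 fold change was 0.15 for Hoxb9 and 0.52 for Hoxc6, and without WT replicate 1 it was 0.47 for Hoxb9. Of the 10 genes of the HoxB cluster (chromosome 11, 96194316 to 96368256), Hoxb9 and Hoxb4 had a row. Within 500 kb of Hoxb4, 8 other genes were listed, with log2 fold changes from -0.15 to 0.80 and a median of 0.017. The groups overlapped in all 8, while they were apart for 17.4% of all genes. No gene within 500 kb of Meis1 had a row.

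**Figure D2:**
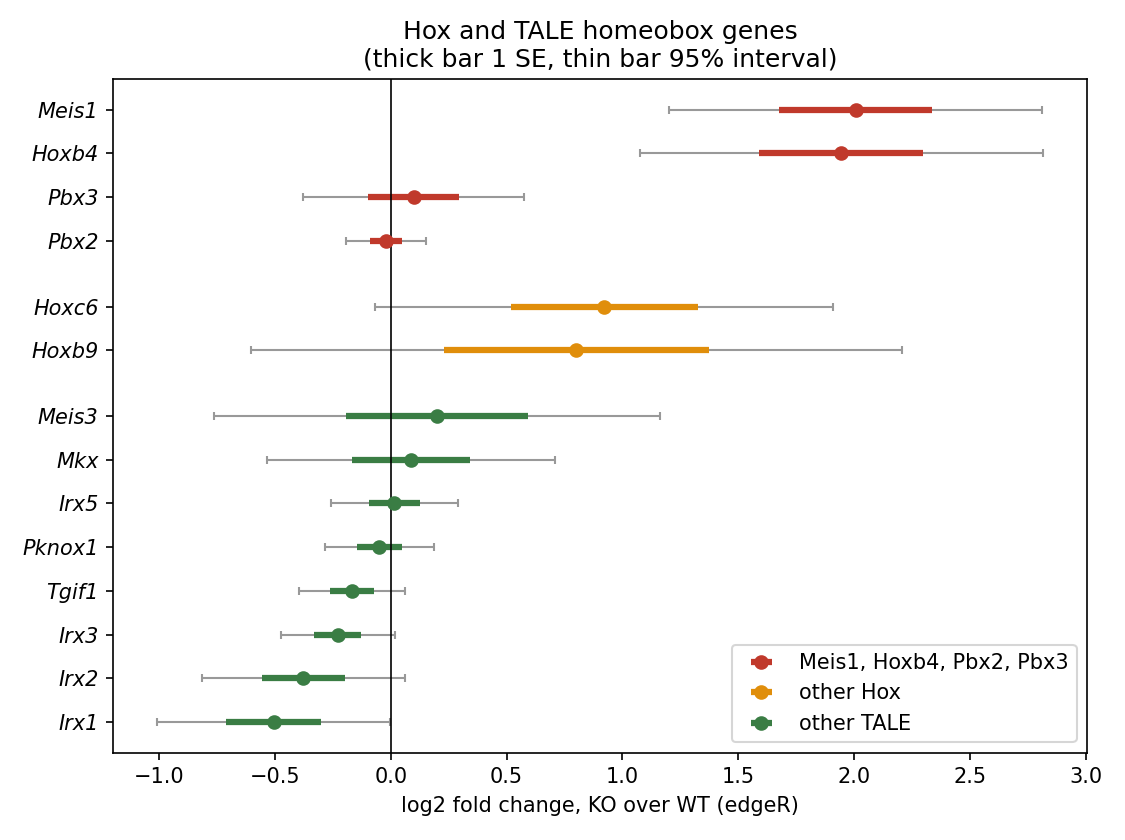
Log2 fold change of KO over WT (x axis) for 14 Hox and TALE genes (rows), with a thick bar for 1 SE and a thin bar for the 95% interval of edgeR's fit over 3 libraries per genotype. Meis1 (2.01) and Hoxb4 (1.95) lay to the right of every other gene shown, Hoxc6 (0.92) and Hoxb9 (0.80) followed with wide intervals that cross 0, and the others lay between -0.51 and 0.20.

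Ratios of counts within a library do not depend on library scaling, and they restate the differences above against relatives of the members. Because the members were chosen on this contrast, the ratios are a description. The ratio of Meis1 to Meis3 counts was 0.952 to 1.84 in KO libraries, against 0.328 to 0.5 in WT libraries, and the ranges did not overlap. Hoxb4 over Hoxc6 was 2.51 to 4.08 in KO and 1.40 to 1.53 in WT, and Hoxb4 over Hoxb9 was 2.39 to 6.03 in KO and 1.26 to 1.98 in WT, again without overlap. The ratio of Meis1 to Hoxb4 was 0.382 to 0.880 in KO and 0.430 to 0.574 in WT, so the groups overlapped. Pbx3 over Pbx2 also overlapped, at 0.124 to 0.163 in KO and 0.107 to 0.170 in WT.

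**Figure D3:**
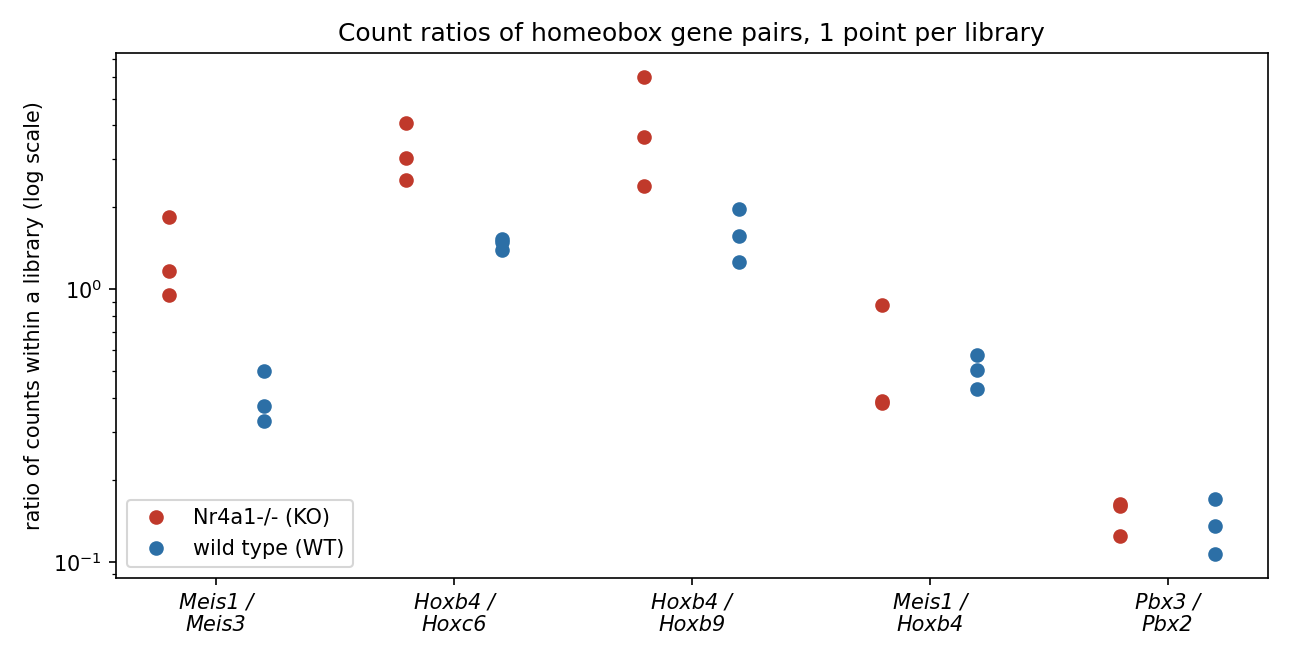
Ratio of counts of 2 homeobox genes within a library (y axis, log scale) for 5 gene pairs (x axis), with KO libraries in red and WT libraries in blue. The KO points lay above the WT points for Meis1 over Meis3, Hoxb4 over Hoxc6 and Hoxb4 over Hoxb9, and the points overlapped for Meis1 over Hoxb4 and Pbx3 over Pbx2.

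Most markers of stromal cells had a log2 fold change above 0, as Meis1 and Hoxb4 did. In these bulk samples, more cells of a type and more RNA per cell cannot be told apart. The summed level of 12 listed fibroblast markers of 15 was 6489 to 11126 CPM in KO and 3194 to 7436 CPM in WT. All 12 had a log2 fold change above 0 (median 0.77), and each had overlapping groups. Over all genes, 49.4% had a log2 fold change above 0. The groups were apart for 17.4% of all genes, and KO lay above for 8.39%. Pericyte and smooth muscle markers (10 of 12 listed) summed to 1133 to 2337 CPM in KO and 576 to 1383 CPM in WT. Of these, 8 had a log2 fold change above 0 and 2 below. The groups were apart for 5, all with KO above, and overlapped for the other 5. Macrophage markers (12 of 14) summed to 762 to 1154 CPM in KO and 412 to 744 CPM in WT. Each of these 12 had a log2 fold change above 0. Their groups were apart for 3, with KO above, and overlapped for 9. Luminal mammary markers (10 of 14) ran the other way, at 3727 to 4838 CPM in KO and 5542 to 5936 CPM in WT. Of the luminal markers, 1 had a log2 fold change above 0 and 9 below, and the groups were apart for 3, with KO below. Basal and myoepithelial markers (10 of 11) overlapped, at 2921 to 3625 CPM in KO and 1830 to 3801 CPM in WT. Of these basal markers, 5 had a log2 fold change above 0 (Myh11, Vim, Acta2, Trp63 and Oxtr) and 5 below. Those below were Itgb4, Cdh3 and the keratins Krt5, Krt14 and Krt17. Endothelial cells were represented by Flt1 and Eng alone of 12 markers, at 65.0 to 201 CPM in KO and 26.7 to 69.4 CPM in WT, and adipocytes by Fabp4 and Lpl alone of 10, at 53.4 to 134 CPM in KO and 11.6 to 21.5 CPM in WT. Pecam1, Cdh5 and Adipoq, which define those cells, had no row, nor did any of 10 lymphocyte markers.

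Within each genotype, the libraries had the same order by Hoxb4 and by fibroblast sum, with replicate 1 lowest and replicate 2 highest in KO and in WT. Among KO libraries, Hoxb4 had the order of no other marker sum. In WT, Meis1 and Hoxb4 had the order of the fibroblast, pericyte, basal and adipocyte sums alike. The endothelial sum had it too, but WT replicates 2 and 3 were nearly equal there (69.35 and 69.28 CPM). WT replicate 1, the library that stood apart, was lowest in all of these sums. The macrophage and luminal sums had other orders in WT. Among KO libraries, Meis1 had the order of the macrophage sum. In KO it did not have the order of the fibroblast sum, since its highest library, replicate 1, had the lowest sum. With 3 libraries per genotype, these orders are a description. The marker sums of the genotypes partly overlapped for fibroblasts, since WT replicate 2 (7436 CPM) lay above KO replicates 1 and 3 (6489 and 7357 CPM). They also overlapped for the pericyte and smooth muscle, the endothelial and the basal markers. For the macrophage and adipocyte sums all KO libraries lay above all WT libraries, and for the luminal sum they lay below. The part of these markers in the difference of Meis1 and Hoxb4 was not tested.

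**Figure D4:**
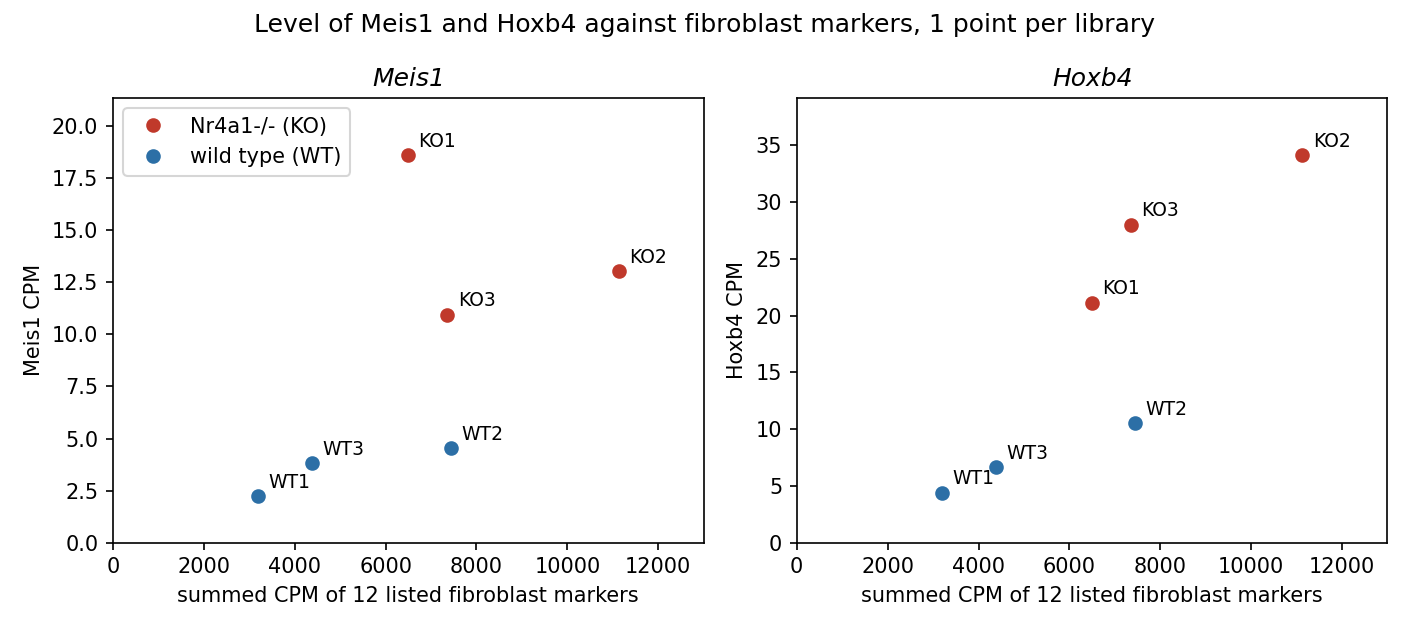
Level of Meis1 (left panel) and Hoxb4 (right panel) in CPM against the summed CPM of 12 fibroblast markers, with 1 labelled point per library, KO in red and WT in blue. The marker sum was 6489 to 11126 CPM in KO and 3194 to 7436 CPM in WT, and Hoxb4 had the order of the sum within each genotype, whereas Meis1 did so in WT and not in KO.

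Each level was also divided by a marker sum, a scaling chosen after seeing the data, and the ratio of the KO to the WT mean depended on the sum. Before division the KO mean was 4.02 times the WT mean for Meis1 and 3.86 times for Hoxb4. Per 1000 CPM of fibroblast markers, Hoxb4 had 3.26, 3.07 and 3.81 CPM in KO libraries, against 1.38, 1.42 and 1.52 CPM in WT libraries, a ratio of 2.35. Meis1 had 2.87, 1.17 and 1.49 CPM in KO libraries, against 0.698, 0.611 and 0.871 CPM in WT libraries, a ratio of 2.54. With pericyte and smooth muscle markers the ratios were 2.60 for Meis1 and 2.50 for Hoxb4, and with macrophage markers 2.09 and 2.15. With the 2 endothelial markers they were 1.91 and 1.88, and with the 2 adipocyte markers 0.914 and 0.865. Fabp4, which carries 52.3% of the adipocyte sum over all 6 libraries, averaged 50.6 CPM in KO and 3.14 CPM in WT. Lpl, the other gene of that sum, averaged 35.2 CPM in KO and 13.7 CPM in WT. On these means Fabp4 was the larger part in KO and Lpl in WT. The log2 fold change of Fabp4 was the 2nd highest of all genes. Division by a sum that was higher in KO lowers the ratio by construction, and division by a sum that was lower in KO raises it. A sum that rose more than a gene, as the adipocyte sum did, removes the higher KO mean of that gene. Nothing is therefore read from the size of the ratio with any of the sums, and a part of any of these cell types in either difference was not tested. The luminal sum gave 5.42 and 5.38, and the basal and myoepithelial sum 3.68 and 3.51. The basal sum is not purely epithelial, since Acta2 (23.8% of it) and Myh11 are also on the pericyte and smooth muscle list. The groups overlapped for both genes with the adipocyte sum and for Meis1 with the endothelial sum, and KO libraries lay above WT libraries in the other cases. Over all genes, KO libraries lay above WT libraries for 0.373% with the fibroblast sum, 0.473% with the pericyte and smooth muscle sum, 0.146% with the macrophage sum and 0.109% with the endothelial sum. The share was 0.0182% with the adipocyte, 60.5% with the luminal and 2.42% with the basal sum. Nothing is read from these shares, since Meis1 and Hoxb4 were chosen on the same contrast. A few genes carry each sum over all 6 libraries. Col1a1 had 28.5% of the fibroblast and Acta2 53.4% of the pericyte and smooth muscle total. Lyz2 had 68.8% of the macrophage and Fabp4 52.3% of the adipocyte total.

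Genes that control or cooperate with Hox and TALE factors held no call apart from 1 in the retinoic acid pathway. Of 23 Trithorax regulators and partners, all had a row, 10 lay above 0 and 13 below, and their median log2 fold change was -0.028. The smallest p-values in that list belonged to Kmt2b at -0.28 (SE 0.090), Dot1l at -0.41 (SE 0.14) and Kmt2d at -0.27 (SE 0.10), which encode histone methyltransferases. Of 33 Polycomb regulators, which silence Hox clusters, 32 had a row, 10 above 0 and 22 below, with a median of -0.086. Those with the smallest p-values were Phc2 at -0.25 (SE 0.072), Pcgf5 at -0.85 (SE 0.34) and Asxl1 at -0.16 (SE 0.066). Without WT replicate 1, the library that stood apart, Pcgf5 was at -0.38 and Dot1l at -0.24. edgeR called 0 genes in either list, with 3 Trithorax and 2 Polycomb genes at an unadjusted p under 0.05, and DESeq2 called 0. Over all genes, 866 of 10995 had an unadjusted p under 0.05 and 49.4% had a log2 fold change above 0.

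Retinoic acid is a classic inducer of Hox genes, and 18 of 26 genes of its pathway had a row, 9 above 0 and 9 below, with a median log2 fold change of 0.021. Cyp26b1, which breaks down retinoic acid, averaged 54.1 ± 0.948 CPM in KO and 24.7 ± 4.48 CPM in WT (SD, n = 3 each). Its log2 fold change was 1.13 (SE 0.14), with an adjusted p of 0.287 in edgeR and 2.01e-08 in DESeq2. Aldh1a3, which makes retinoic acid, had a log2 fold change of -0.93 (SE 0.37) with overlapping groups, and the receptor Rara had -0.17 (SE 0.075). Of the 18, 0 passed edgeR's test, 2 had an unadjusted p under 0.05 and DESeq2 called Cyp26b1 alone. Beside these, 866 of all 10995 genes had an unadjusted p under 0.05, and DESeq2 called 0.582% of all genes higher.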

How the data were processed

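For 6 libraries of mouse mammary tumor cells, the authors deposited unnormalized counts of reads per gene. CASAVA 1.8, HISAT2, featureCounts and the build GRCm38 (mm10) are named in the submitters' processing notes. No source used here gives the annotation, the strand rule or the filter on low counts. The members and gene lists were chosen with earlier results of these data known. All 10995 rows were fitted with edgeR 4.0.16 (R 4.3.3) using filterByExpr, which removed 0 genes, TMM scaling and the robust quasi-likelihood F test, and p-values were adjusted over all rows. SEs were derived from the F statistic. DESeq2 1.42.0 and limma-voom (limma 3.58.1) were alternatives. CPM uses the TMM-adjusted library size, and log2 CPM a prior count of 2. Named genes were the members, Nr4a1, listed TALE and Hox relatives, up to 3 genes of smallest p per other list, overlapping neighbors and the 3 genes most correlated with Meis1 and Hoxb4. Marker genes named singly, Gm37818, Gm16140, Zhx3 and Cers2 fall outside that rule and were chosen after their values were seen. No 2 libraries agreed within counting noise (chi-square per degree of freedom at least 23.3). Positions come from GENCODE annotation of GRCm38, where 10917 of 10994 symbols matched 1 gene, and sequences from RefSeq, read with Python 3.11.15. A further related gene is not reported here.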

Additional observations from a re-analysis of the deposited data

How the results depend on the processing

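The log2 fold changes of Meis1 and Hoxb4 kept their direction under every alternative in which they could be fitted. DESeq2 raised both past the threshold (2.01 for Meis1 and 1.95 for Hoxb4), giving 2 members and 103 genes called against 0 and 0 in edgeR, and the cause was not tested. Pbx2 was 0.0030 with library size alone as the scaling. With at least 100 counts in every library, Meis1 and Hoxb4 dropped out by construction, so the median over the members was 0.046 and 1 member lay above 0. With each library left out, Pbx2 ranged from -0.057 to 0.0049 and Pbx3 from -0.042 to 0.24, and 0 to 2 genes were called, the 2 without WT replicate 2. The called members numbered 0 in each of those fits. Meis1 then ranged from 1.76 to 2.23 and Hoxb4 from 1.69 to 2.33. Hoxb9 ranged from 0.15 to 1.14 and Hoxc6 from 0.52 to 1.27. Among the relatives, values changed sign for Meis3 (-0.14 to 0.58), Pknox1 (-0.075 to 0.0037), Mkx (-0.14 to 0.25) and Irx5 (-0.043 to 0.13).

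Deviations from the genotype mean had correlations of -0.11, 0.35 and -0.25 between libraries with the same replicate number. With 3 libraries per genotype, these values cannot decide whether the numbers pair the libraries. With the replicate block, Meis1 was 2.01, Hoxb4 2.004, Pbx2 -0.021 and Pbx3 0.11, and 0 genes were called. The block lowered the SE from 0.35 to 0.16 for Hoxb4 and from 0.20 to 0.16 for Pbx3. It raised the SE from 0.33 to 0.40 for Meis1 and from 0.070 to 0.080 for Pbx2. Not every library correlated best with its own number. Counts under 100 in WT limit the precision for Meis1.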

Other observations

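Among homeobox genes outside the Hox and TALE classes, 26 of 115 on the list had a row. Of these, 15 lay above 0 and 11 below, with a median log2 fold change of 0.056, while 49.4% of all genes lay above 0. None (0) was called by edgeR or DESeq2, and 3 had an unadjusted p under 0.05, beside 866 of all 10995 genes. Zeb2, a repressor of epithelial genes, averaged 49.3 ± 13.9 CPM in KO and 25.4 ± 11.0 CPM in WT (SD, n = 3 each), and it had a log2 fold change of 0.95 (SE 0.35, edgeR adjusted p = 0.574). Shox2, a limb and heart regulator, averaged 8.53 ± 3.05 CPM in KO and 4.66 ± 0.852 CPM in WT, with a log2 fold change of 0.87 (SE 0.30). Pou6f1, a POU-class factor, averaged 35.3 ± 6.02 CPM in KO and 53.6 ± 6.04 CPM in WT, with a log2 fold change of -0.60 (SE 0.15). Without KO replicate 2, Shox2 had 0.55. The groups did not overlap for these 3 genes, which were named for their small p, nor for Zhx3 and Cers2, so 5 of the 26 were apart (3 with KO above and 2 with KO below), against 17.4% of all genes.

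The genes whose log2 CPM most resembled Meis1 over the 6 libraries were Gclm, Synj2bp and Lpcat3, with Pearson r of 0.992, 0.990 and 0.986. Those most like Hoxb4 were Ncoa4, Coq3 and S1pr3, with r of 0.995, 0.995 and 0.993. Such values were not rare, since r lay above 0.95 for 52 genes with Meis1 and for 93 with Hoxb4, members and unnamed models left out. All 6 libraries are split by genotype and share the same scaling, so these are descriptions. S1pr3, a receptor for sphingosine 1-phosphate, averaged 21.6 CPM in KO and 6.14 CPM in WT, a log2 fold change of 1.82, whereas Ncoa4 had 0.38 and Coq3 0.31.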
